A study of Mus musculus with 20 samples.

Results

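The transcription factors of the KLF, SP and EGR families bind GC-rich DNA, and their motifs were followed here through the footprint table and the peak lists of Nkx2.1-lineage brain cells with and without Tcf4. A motif belonged to the set when its name in the deposited footprint table, in upper case, was KLF, SP or EGR followed directly by a digit. This gave 47 of 1205 motifs, with 24 KLF, 15 SP and 8 EGR matrices for 27 factors, since up to 5 matrix versions stand for the same factor. WT cells carried the Nkx2.1-Cre driver without loss of Tcf4, and Tcf4 cKO cells were Tcf4 f/f; Nkx2.1-Cre, so that Tcf4 was removed in Nkx2.1-expressing progenitors and all of their progeny. In both genotypes the Cre reporter Ai3 labelled the lineage, and GFP-positive cells were sorted from the neocortex of pups. The paper's methods give postnatal day 7 or 8 for these pups. The labels of the ATAC-seq footprint scores name day 7, as does the paper for the H3K4me1 cells. ATAC-seq, which reads open chromatin by transposase insertion, had 2 libraries per genotype, as did Cut&Tag (antibody-guided tagmentation) of H3K4me1, H3K27ac and H3K27me3. Tcf4 occupancy was profiled with an anti-Flag antibody in 2 libraries of a Tcf4-tag line, in which the endogenous protein carries the tag after Nkx2.1-Cre recombination. The labels do not say that the replicates came from separate litters, so the spread between them may be technical. No RNA was measured in the files used here, and the loss of Tcf4 itself was therefore not checked.

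KLF and SP proteins share a zinc-finger domain that reads GC boxes (GGGCGG) and CACCC boxes, and EGR proteins read a related GC-rich core (GCGTGGG) with zinc fingers of the same kind. SP1 and SP3 are broadly expressed and act at CpG-rich promoters, while KLF members activate or repress in more restricted tissues. EGR1 to EGR4 are immediate-early factors, induced within minutes of stimulation in neurons, and EGR2 also drives myelination by Schwann cells. KLF6 and KLF9 have been studied in oligodendrocyte differentiation, and SP8 and SP9 in the development of interneurons.

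To show what such sites look like in these cells, 4 core sequences were searched on both strands. They were the GC box GGGCGG, a GC box variant GGCGTGG, the CACCC box GGGTGTG and the EGR core GCGTGGG. The variant and the EGR core can share letters, since GGCGTGGG holds both. In the 250 bases before the start of 32817 RefSeq promoters of GRCm38.p6, the GC box was present in 32.7%, the variant in 7.54%, the CACCC box in 6.93% and the EGR core in 4.31%. The promoter table held 22 of the 30 genes Klf1 to Klf17, Sp1 to Sp9 and Egr1 to Egr4, with 32 promoters. Of these promoters 20 had a GC box, against the 32.7% of all promoters. Counted by gene, 17 of the 22 had a GC box in at least 1 promoter, but no share over all genes is given for this count. A gene with several promoters has more chances to hold a GC box. Stretches upstream of 4 of these genes are shown with each core in capitals, chosen after the search because they carry several GC boxes or an EGR core, with at least 1 gene per family. They end before the first annotated exon and read 5′ to 3′ on the strand of the gene. Klf4 lies at chr4:55532476-55532725 on the minus strand, Sp4 at chr12:118301441-118301690 on the minus strand, Klf15 at chr6:90462326-90462575 on the plus strand and Egr2 at chr10:67535249-67535474 on the plus strand.
Klf4: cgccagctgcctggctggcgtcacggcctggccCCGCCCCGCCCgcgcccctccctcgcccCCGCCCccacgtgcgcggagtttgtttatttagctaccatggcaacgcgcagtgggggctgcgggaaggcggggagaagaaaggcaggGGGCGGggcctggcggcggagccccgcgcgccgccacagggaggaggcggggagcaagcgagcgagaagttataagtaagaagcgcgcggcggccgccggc
Sp4: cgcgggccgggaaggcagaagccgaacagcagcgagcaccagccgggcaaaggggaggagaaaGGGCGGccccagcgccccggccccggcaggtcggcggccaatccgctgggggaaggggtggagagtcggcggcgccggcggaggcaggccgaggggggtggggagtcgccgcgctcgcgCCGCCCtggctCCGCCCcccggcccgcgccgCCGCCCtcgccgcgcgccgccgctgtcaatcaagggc
Klf15: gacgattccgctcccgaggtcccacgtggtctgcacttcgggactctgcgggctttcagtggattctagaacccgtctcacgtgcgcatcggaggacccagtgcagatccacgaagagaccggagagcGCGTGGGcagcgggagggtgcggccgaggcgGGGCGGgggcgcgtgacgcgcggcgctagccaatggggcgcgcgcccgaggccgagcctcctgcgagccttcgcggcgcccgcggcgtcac
Egr2: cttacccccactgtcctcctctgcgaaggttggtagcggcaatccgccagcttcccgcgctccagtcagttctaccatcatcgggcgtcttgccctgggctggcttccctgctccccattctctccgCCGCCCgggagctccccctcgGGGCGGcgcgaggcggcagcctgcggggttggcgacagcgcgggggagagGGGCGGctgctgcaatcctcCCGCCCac
The Klf4, Sp4 and Egr2 stretches each held 4 GC boxes, and the Klf15 stretch held 1 GC box and 1 EGR core. Egr2 also had promoters farther downstream, with ATAC-seq peaks over them in all 4 libraries. Of these, the promoter at chr10:67537316-67537565 held 1 GC box and the others held no core. ATAC-seq peaks covered the Klf4, Sp4 and Klf15 stretches in all 4 libraries and the Egr2 stretch in 3 of 4. Tcf4 peaks covered the first 3 in both anti-Flag libraries and the Egr2 stretch in neither.

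Away from promoters, 4 windows reaching 75 bases to each side of the centre of an accessible region are shown because ATAC-seq peaks overlapped the region in both libraries of 1 genotype and in neither of the other. They are written on the plus strand of GRCm38, overlap no annotated exon, and were chosen after their values were seen. The window at chr16:93418565-93418715, nearest to Mir802 in the authors' annotation, and the window at chr13:5888324-5888474, nearest to Klf6 there but 1058 bp from another GENCODE start, had peaks in WT. The windows at chr14:47911851-47912001, for which the annotation names no gene symbol, and at chr17:3336991-3337141, in an intron of Tiam2, had peaks in Tcf4 cKO.
Near Mir802: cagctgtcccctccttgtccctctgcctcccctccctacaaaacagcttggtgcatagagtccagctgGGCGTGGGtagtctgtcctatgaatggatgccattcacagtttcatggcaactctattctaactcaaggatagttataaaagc
Near Klf6: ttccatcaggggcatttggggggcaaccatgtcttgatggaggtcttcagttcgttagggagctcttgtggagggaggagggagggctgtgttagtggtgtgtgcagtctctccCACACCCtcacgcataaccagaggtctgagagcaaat
Intergenic: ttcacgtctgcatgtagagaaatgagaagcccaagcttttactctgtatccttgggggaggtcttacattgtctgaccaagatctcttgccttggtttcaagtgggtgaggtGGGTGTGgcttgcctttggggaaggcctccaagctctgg
Tiam2 intron: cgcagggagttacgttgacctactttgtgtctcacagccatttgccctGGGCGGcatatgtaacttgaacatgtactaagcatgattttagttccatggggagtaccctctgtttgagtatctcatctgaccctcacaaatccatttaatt
The Mir802 window held the run in which variant and EGR core share letters, the Klf6 and intergenic windows held a CACCC box each, and the Tiam2 window held a GC box.

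The footprints of the 47 motifs changed little upon the loss of Tcf4. A footprint score from TOBIAS measures how far transposase insertions are depleted at a motif relative to its flanks, together with how open the site is, and the table gives its mean over all sites of a motif. The mean scores came from 1 merged alignment per genotype, so they have no replicate error, no test was possible, and a difference was called only when it passed 5%. None of the 47 motifs passed 5% in either direction. Among all 1205 motifs, 5 were over 5% higher in Tcf4 cKO (0.415%) and 78 over 5% lower (6.47%).

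Within that limit the scores of these families stood mostly above WT. The change ran from a decrease by 0.136% to an increase of 2.21%, with a median of 1.17%, and 45 of the 47 motifs were higher in Tcf4 cKO, against 46.6% of all motifs. The median over all motifs was -0.196%. The 47 motifs fall in 14 clusters of similar motifs, the largest with 16, so they are not separate measurements. With only the motif with the most sites kept per cluster, 92.9% were higher, with a median change of 1.35%. At 1%, a threshold added after the data had been seen, 28 of the 47 motifs (59.6%) were higher and none lower, against 28.3% higher and 36.1% lower among all motifs. With no libraries kept apart in the table, a shift of this size cannot be set against the spread between replicates.

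**Figure D1:**
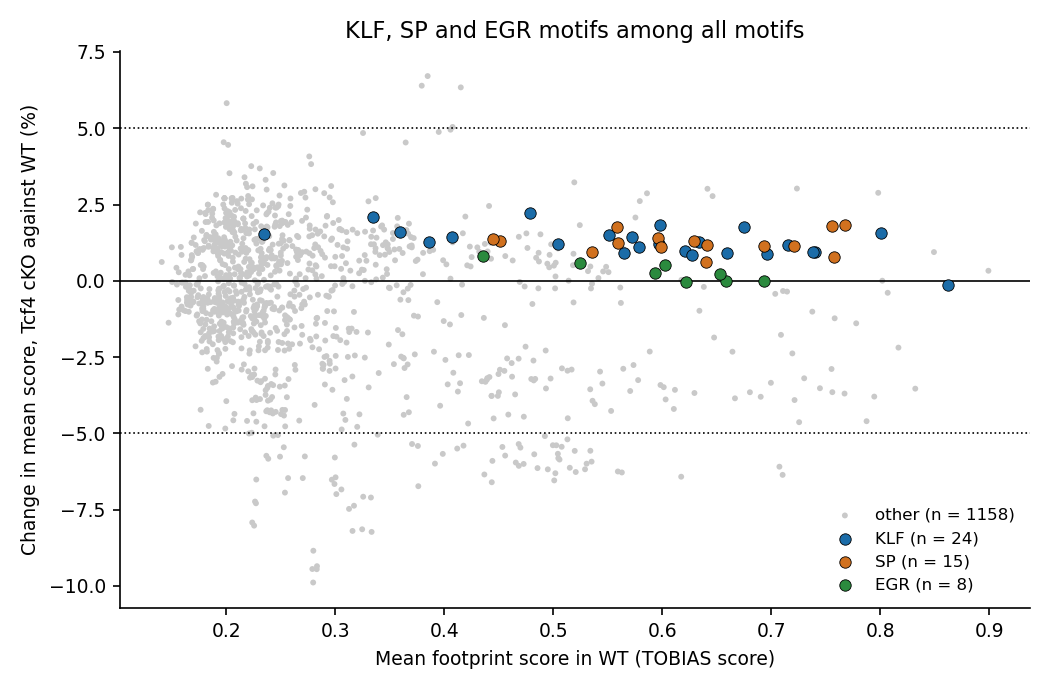
Each point is a motif of the footprint table, placed by its mean footprint score in WT (x axis, TOBIAS score) and the percent change of that score in Tcf4 cKO (y axis), with KLF, SP and EGR motifs in colour and the 1158 other motifs in grey. Dotted lines mark 5% in each direction, and the coloured points lie between -0.136% and 2.21%, mostly to the right of the grey cloud.

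These motifs were among the strongest footprints of WT cells. The median WT score of the 47 motifs was 0.603, against 0.242 for the 1158 other motifs, and their median number of sites was 47814 against 14666. KLF15, a factor known from metabolic control in liver and muscle, had the highest score of the set, 0.862 in WT and 0.861 in Tcf4 cKO, and ranked at position 2 of all 1205 motifs. KLF14 followed in its matrix MA0740.1 with 0.801 in WT and 0.813 in Tcf4 cKO, and SP1 in MA0079.4 with 0.768 and 0.782. At the lower end, the original Klf4 matrix MA0039.1 scored 0.234 in WT and 0.238 in Tcf4 cKO, below the median of all motifs. The later KLF4 matrix MA0039.3 scored 0.335 and 0.342, and KLF9 in MA1107.1 scored 0.359 and 0.365. The matrices of KLF4 thus spanned 0.234 to 0.597 in WT, a wider range than the 0.435 to 0.693 of all EGR matrices.

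Strong footprints outside these families mostly fell. Of the 104 other motifs with a WT score of at least 0.5, 75 were lower in Tcf4 cKO and their median change was -2.88%, while the 38 KLF, SP and EGR motifs above the same score had a median of 1.11%. For comparison, chosen after their values were seen, the 48 ETS matrices had a median of -2.89% and the 7 matrices of CREB1, CREM and ATF1 a median of -6.09%. The 6 matrices of NF-Y, another factor of proximal promoters, had a median of 2.88%, and both NRF1 matrices rose by less than 1%, by 0.33% and 0.942%. High WT scores were not particular to KLF, SP and EGR motifs. The median WT score was 0.644 for NF-Y and 0.874 for NRF1. It was 0.521 for CREB1, CREM and ATF1 and 0.474 for ETS. The table gives no positions of sites, so overlap between the sites of these motifs and those of KLF and SP was not measured.

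The EGR motifs stood apart from KLF and SP by a smaller change. The median change was 0.233% for EGR, against 1.24% for KLF and 1.24% for SP. The 8 lowest motifs of the set were KLF15 and 7 EGR matrices. EGR1 in MA0162.4 moved from 0.622 to 0.621, EGR1 in MA0162.3 stayed at 0.693, EGR2 in MA0472.2 stayed at 0.659, and EGR3 moved from 0.653 to 0.654. All 8 EGR matrices fall in 1 cluster of similar motifs in the deposited table, so they are close to a single measurement. At the other end were Klf1, the erythroid activator that reads CACCC boxes, from 0.478 to 0.489, and KLF4 in MA0039.3. KLF13 rose from 0.598 to 0.609, SP1 in MA0079.4 by 1.81% and SP4 in MA0685.1 by 1.79%.

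Versions of the matrix for 1 factor could differ from each other, more for some factors than for others. The 5 SP1 matrices changed by 0.608% to 1.81%, the 4 KLF4 matrices by 1.21% to 2.10%, and the 4 EGR1 matrices by -0.0434% to 0.527%. Both Klf1 matrices were higher in Tcf4 cKO, by 0.896% and 2.21%, while both SP3 matrices were at 1.1%. Across the 47 motifs, which share sites and the same 2 merged alignments, the change in score had a Spearman correlation of -0.306 (Pearson -0.348) with the WT score and of -0.0297 with the number of sites.

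**Figure D2:**
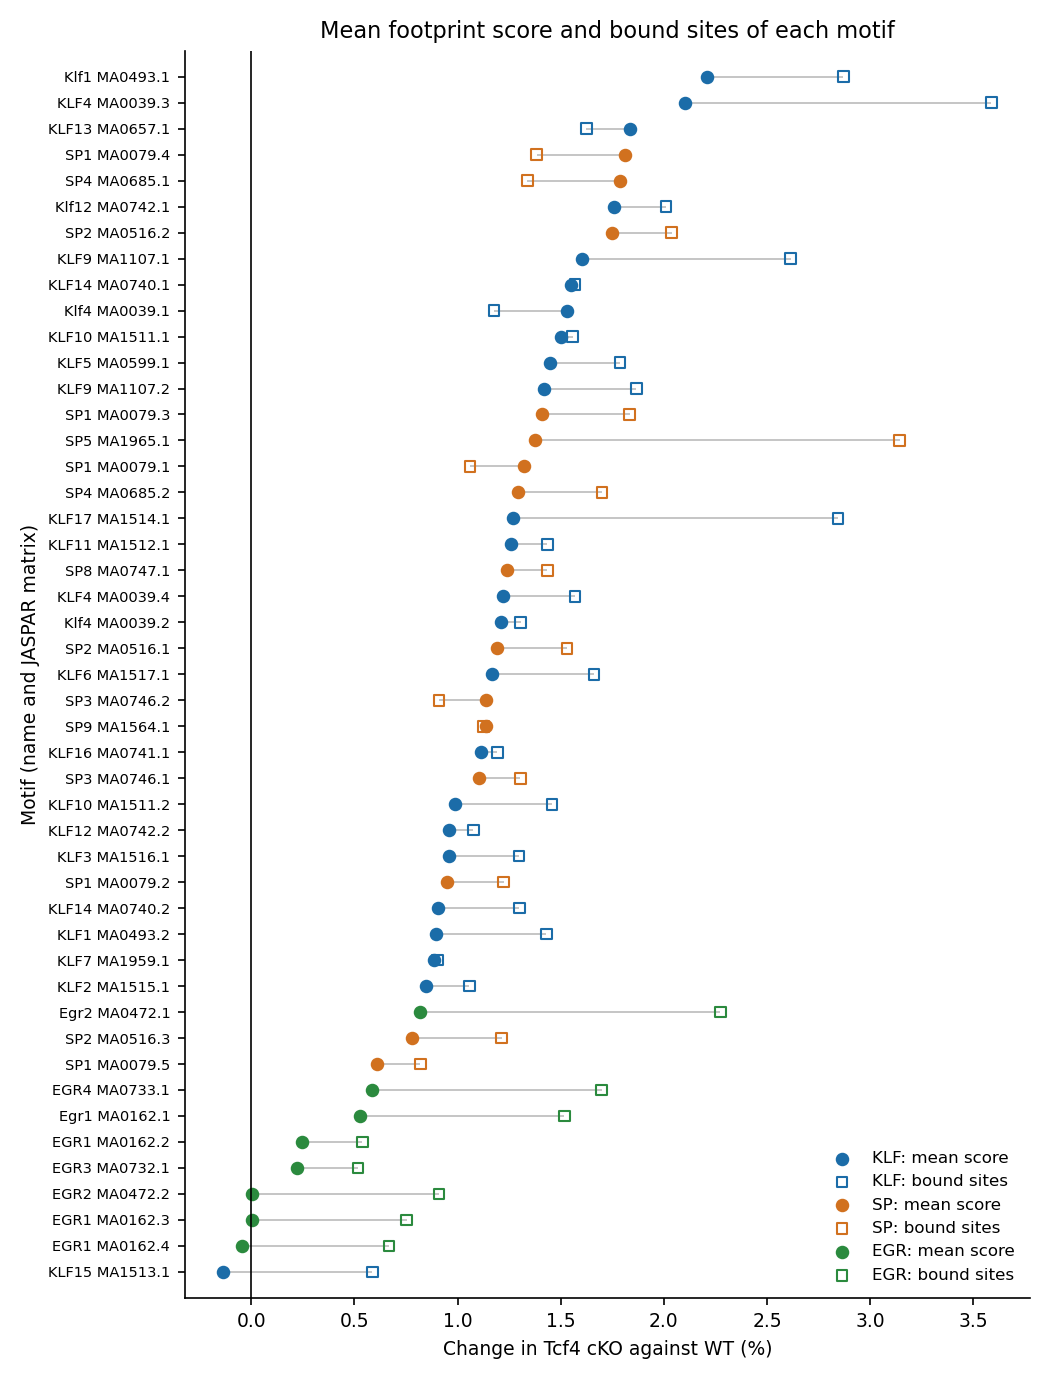
For each of the 47 motifs (y axis, name and JASPAR matrix, ordered by the change in score) a filled circle gives the percent change of the mean footprint score in Tcf4 cKO against WT and an open square that of the number of bound sites (x axis). The filled circles run from -0.136% to 2.21%, with EGR matrices at the lower end, and every square lies above 0.

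The number of sites called bound moved in the same direction as the mean score, except for KLF15 and EGR1 in MA0162.4. For these the score was lower in Tcf4 cKO while bound sites rose by 0.587% and 0.668%. TOBIAS calls a site bound in a genotype when its score passes a threshold set from background. Bound calls thus come from the same scores and are not a separate check on them. All 47 motifs had more bound sites in Tcf4 cKO, against 51% of all motifs, by 0.516% to 3.59% with a median of 1.43%. None passed 5%, against 3.24% of all motifs with over 5% more bound sites and 8.05% with over 5% fewer. At 1%, 38 of 47 motifs (80.9%) had more bound sites, against 37.2% of all motifs. With 1 motif kept per cluster of similar motifs, all had more bound sites, by a median of 1.34%. The matrix with the most sites, SP1 in MA0079.3, had 92694 sites, of which 29920 were bound in WT (32.3%, 95% Wilson interval 32.0 to 32.6) and 30469 in Tcf4 cKO (32.9%, 32.6 to 33.2). The intervals cover counting error over sites only, not the variation between animals. SP1 in MA0079.2 had 89062 sites, with 25990 and 26308 bound, and SP2 in MA0516.1 had 87587, with 30956 and 31430. The motifs with the fewest sites were EGR1 in MA0162.3, with 5574 bound in WT and 5616 in Tcf4 cKO of 13664, EGR2 in MA0472.2, with 5383 and 5432 of 13977, and KLF13, with 4373 and 4444 of 14356. The bound share in WT was highest for KLF15, at 52.4%, and lowest for Klf4 in MA0039.1, at 8.68%. The largest relative gain, 3.59%, was that of KLF4 in MA0039.3, from 3484 to 3609 sites.

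Since the footprint table has no replicates, the cores were next counted in the ATAC-seq peaks of each library, within 75 bp of the peak summit. The GC box was present in 19.6% and 15.3% of the peaks of the WT libraries and in 17.6% and 17.9% of those of Tcf4 cKO, so that the Tcf4 cKO libraries lay between the WT libraries. The WT mean was 17.4% ± 3.03 (SD, n = 2) and the Tcf4 cKO mean 17.8% ± 0.227 (SD, n = 2). The GC box variant was present in 3.53% and 2.80% in WT and in 3.16% of peaks in both Tcf4 cKO libraries. The CACCC box was present in 3.21% and 3.02% in WT and in 3.13% and 3.10% in Tcf4 cKO. The EGR core was present in 2.40% and 2.06% in WT and in 2.24% and 2.27% in Tcf4 cKO. For each of the 4 cores the genotypes overlapped, and the exact two-sided permutation test over libraries gave p = 1 (Benjamini-Hochberg adjusted over the 4 cores, 1), where the smallest p that 2 against 2 allows is 0.333.

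The spread within WT moved with the make-up of the peak lists. WT replicate 2 had the most peaks, 72308, and the smallest share within 1 kb of a transcription start site, 27.4%. WT replicate 1 had the fewest, 54162, and the largest such share, 34.0%, while the Tcf4 cKO lists of 61652 and 58584 peaks had 30.7% and 31.6%. When only the 40000 strongest peaks of each list were kept, the GC box share was 24.3% and 23.5% in WT and 24.1% and 23.7% in Tcf4 cKO. The GC box was found in 41.6% to 44.8% of peaks within 1 kb of a start and in 5.35% to 6.58% of those farther away, over the 4 libraries. The CACCC box differed far less with position, at 3.56% to 3.70% near starts and 2.82% to 3.00% elsewhere. Near starts its shares did not overlap between the genotypes, with 3.62% and 3.56% in WT against 3.70% and 3.63% in Tcf4 cKO (exact permutation p = 0.333, adjusted 1).

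**Figure D3:**
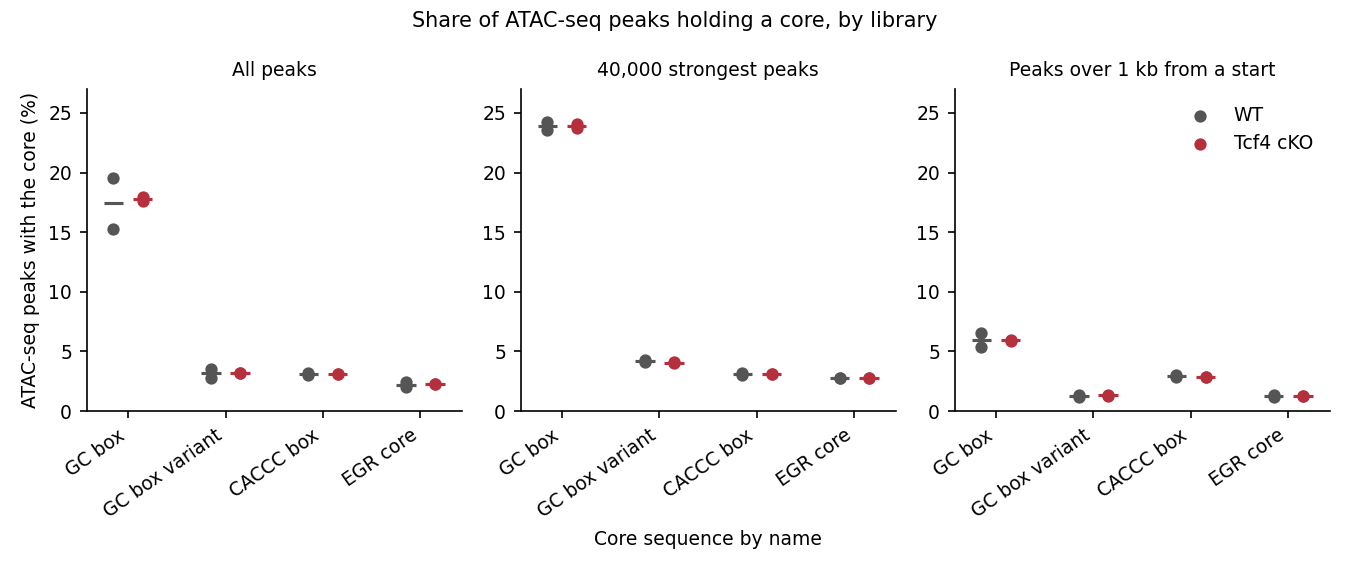
Points give the percent of ATAC-seq peaks (y axis) of each library that held a core (x axis, named) within 75 bp of the summit, for all peaks, the 40000 strongest and those over 1 kb from a start, with WT in grey, Tcf4 cKO in red and bars at the mean of the 2 libraries. The Tcf4 cKO points for the GC box in all peaks, 17.6% and 17.9%, lie between the WT points.

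Accessible regions with a GC box, its variant or the EGR core had lower shares past 0.5 in both directions than all regions, whereas the share below -0.5 with a CACCC box was near that of all regions. For 32120 consensus regions the authors' table holds 1 mean per genotype, on a log2 scale of normalized reads. The difference of these means, Tcf4 cKO minus WT, was read with no test, since no value per library is given. A core lay within 75 bp of the centre of 8573 regions, 6887 of them with a GC box, 1132 with the variant, 996 with the CACCC box and 966 with the EGR core. Of all regions, 8.38% were above 0.5 and 12.6% below -0.5. With a GC box, 2.28% (Wilson interval 1.95 to 2.66) were above 0.5 and 3.02% (2.64 to 3.45) below -0.5. The variant had 2.56% and 3.98%, the EGR core 3.52% and 5.49%, and the CACCC box 6.33% and 12.2%. The median difference was -0.107 with a GC box, -0.0890 with a CACCC box and -0.0954 over all regions. The read level differed too, and its part in these shares was not tested. The median log2 mean in WT was 8.32 with a GC box, 8.10 with the variant and 8.06 with the EGR core. It was 7.17 with a CACCC box and 7.07 over all regions.

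These regions lay mostly at promoters. Of those with a GC box, 5804 of 6887 lay within 1 kb of a start, where 0.948% of them were above 0.5 and 1.57% below -0.5. Regions with no core within 1 kb of a start had 3.53% and 5.60%. Among the 16949 distal regions, over 1 kb from a start, 13.7% were above 0.5 and 20.3% below -0.5. The 1083 distal regions with a GC box had 9.42% (7.82 to 11.3) above and 10.8% (9.09 to 12.8) below. The 490 with a CACCC box had 10.2% (7.83 to 13.2) above and 21.2% (17.8 to 25.1) below, so that the share below -0.5 was near that of all distal regions. The mean GC content of the windows around distal centres was 57.4% with any core, 52.9% with a CACCC box and 49.1% with no core. The median log2 mean in WT was 6.52 with any core and 6.27 with none at distal regions. Near starts it was 8.46 and 7.92. The part of GC content or read level in these shares was not tested.

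A few core-bearing distal regions were called as peaks in a single genotype. Of 1815 distal regions with any core, 20 (1.1%) were called in WT replicates 1 and 2 and in neither Tcf4 cKO library, against 1.72% of all distal regions. The reverse was seen in 7 (0.386%), against 0.932%. Of the 20, 11 held a CACCC box, which was 2.24% of the 490 such regions, near the 1.72% of all distal regions. The largest decrease was near Bmf, which encodes a pro-apoptotic BCL2-family protein, with a log2 mean of 6.40 in WT and 1.76 in Tcf4 cKO. ATAC-seq peaks there had a fold enrichment of 6.91 and 7.57 in WT. An intergenic region followed with 5.92 and 3.34. The largest increases were at the intergenic chromosome 14 window shown above, from 3.71 to 6.18, with peaks of 7.99-fold and 8.53-fold in Tcf4 cKO, and at the Tiam2 intron, from 3.66 to 5.89, with peaks of 6.29-fold and 6.09-fold. Tiam2 encodes an activator of the small GTPase Rac. The Mir802 window fell from 5.79 to 3.98 and was the only 1 of the 4 printed windows with Tcf4 peaks in both anti-Flag libraries, of 6.08-fold and 4.94-fold. The Klf6 window, 26678 bp from the start of Klf6 in the authors' annotation, fell from 5.11 to 3.87. Its WT peaks had a fold enrichment of 6.75 and 8.13, and it had no peak of any of the 3 histone marks.

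Histone marks were then compared at the 8573 consensus regions with a core, as the share of them with a peak. H3K27ac, a mark of active promoters and enhancers, lay over 79.7% and 74.0% of them in WT and 74.9% and 68.2% in Tcf4 cKO. Without a core the shares were 56.5% and 49.7% in WT and 51.2% and 43.9% in Tcf4 cKO. H3K27me3, the mark of Polycomb repression, lay over 23.5% and 28.2% in WT and 24.3% and 23.9% in Tcf4 cKO, and without a core over 12.3% and 15% in WT, and 13.2% and 12% in Tcf4 cKO. For both marks the genotypes overlapped, with an exact permutation p of 0.667 for H3K27ac and 1 for H3K27me3. H3K4me1, which marks enhancers and the flanks of promoters, was the mark whose genotypes did not overlap, with 48.1% and 64.6% in WT and 72.6% and 72.5% in Tcf4 cKO. The difference of 16.2 points had an exact permutation p of 0.333, the smallest possible, and 1 after adjustment over the 3 marks. It was not particular to the cores, because regions with no core had 59.0% and 68.5% in WT and 75.5% and 73.0% in Tcf4 cKO. The number of H3K4me1 peaks moved with it, from 51510 and 59526 in WT to 72790 and 65049 in Tcf4 cKO, and its part in the difference was not tested. Without WT replicate 1 the difference was 7.91 points, and without WT replicate 2 it was 24.4 points.

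Tcf4 itself was found at most core-bearing promoters. Anti-Flag peaks lay over 83.4% and 60.2% of regions with a core within 1 kb of a start, and over 75.1% and 49.3% of those without. At distal regions the shares were 51.3% and 28.3% with a core and 46.6% and 25.5% without. The 2 anti-Flag libraries differed by more than the classes did, with 28606 and 16834 peaks, but within each library the share with a core was the higher. Near starts, regions with a core also had the higher median log2 mean in WT ATAC-seq, 8.46 against 7.92. Their mean GC content there was 69.8%, against 60.5% without a core. The part of read level or GC content in the anti-Flag shares was not tested.

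**Figure D4:**
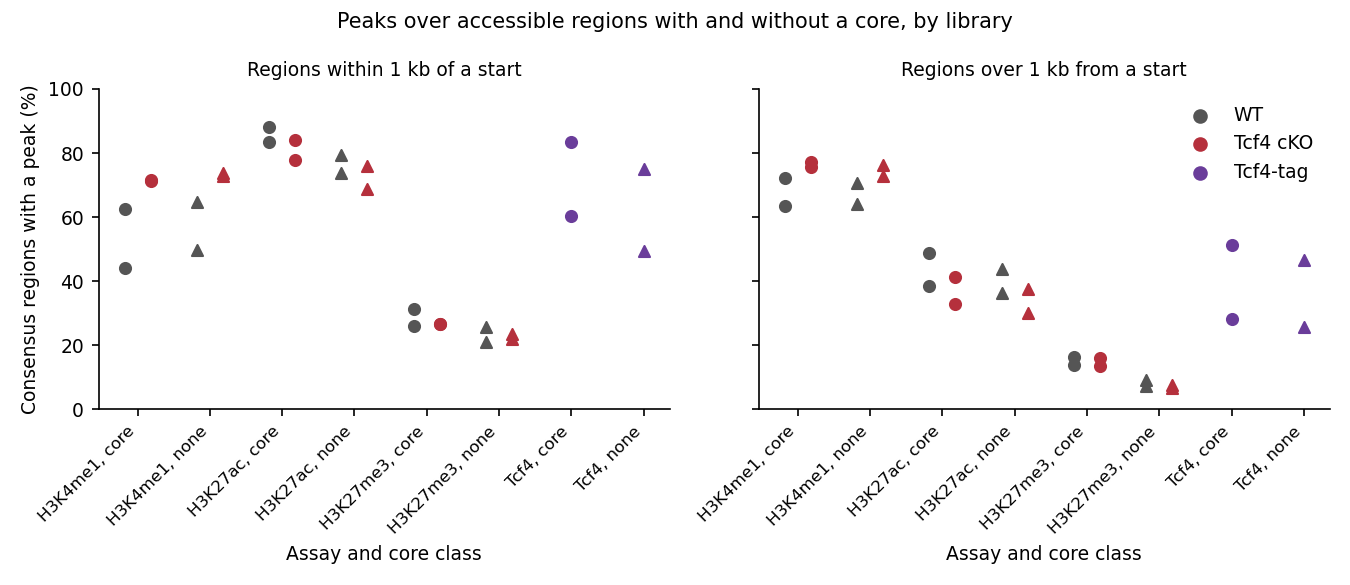
Points give, for each library, the percent of consensus regions (y axis) with a peak of the assay named on the x axis, as circles for regions with a core and triangles for regions without, near starts (left) and distal (right), with WT in grey, Tcf4 cKO in red and Tcf4-tag in purple. H3K4me1 is the mark whose WT and Tcf4 cKO points are apart, with and without a core.

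The genes that encode these factors were examined by the strongest peak within 1 kb of a protein-coding start (GENCODE M21). All 30 genes were in the annotation. ATAC-seq peaks were present in all 4 libraries at 25 of the 30 genes, against 64.1% of 21864 protein-coding genes, and in no library at Klf17 and Sp6. Sp7, the osteoblast factor osterix, had peaks in both WT libraries and 1 Tcf4 cKO library, Sp8 in 1 WT library, and Egr3 in 1 WT and both Tcf4 cKO libraries. No gene of the 30 had an ATAC-seq peak in both libraries of 1 genotype and in neither of the other, which over all genes was seen in WT alone at 0.558% and in Tcf4 cKO alone at 0.261%.

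Each family had genes with H3K27ac and genes with H3K27me3, and Klf2, Klf5 and Sp4 had both marks in every library. H3K27ac peaks were present in all 4 libraries at 16 of the 30 genes, a share near the 47.5% of all protein-coding genes. These were Klf2, Klf3, Klf5 to Klf13, Sp1 to Sp4 and Egr1. The 5 highest mean fold enrichments in WT were at Klf5 (6.10), Klf8 (5.71), Klf11 (5.47), Sp3 (4.93) and Sp1 (4.87). H3K27ac was found in no library at 9 genes, among them Egr2, Egr3, Egr4, Sp8 and Sp9, against 39.0% of all genes. H3K27me3 was present in all 4 libraries at 12 genes, against 12.3% of all genes. These were Klf2, Klf4, Klf5, Klf14, Sp4, Sp5, Sp6, Sp8, Sp9, Egr2, Egr3 and Egr4, which include 7 of the 9 genes without H3K27ac. Klf17, known from the germline and early embryo, had no peak in any library of any assay. Tcf4 peaks were found in both anti-Flag libraries at 18 genes, against 38.1% of all genes, including all 16 with H3K27ac except Klf8.

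H3K27me3 at the promoter was called in both WT libraries and neither Tcf4 cKO library at Egr1, Klf3, Klf13 and Sp2, against 1.78% of all genes. At Egr1, the activity-induced member, the fold enrichments were 2.82 and 3.12 in WT. They were 3.11 and 3.29 at Klf3, 3.16 and 3.43 at Klf13, and 2.91 and 2.67 at Sp2. The reverse held for Klf8, with 3.52 and 3.25 in Tcf4 cKO, against 1.67% of all genes. When only peaks with -log10 q of at least 5 were kept, none of these 5 calls was made, and Egr3 was called in Tcf4 cKO instead. H3K4me1 was called in both Tcf4 cKO libraries and neither WT library at Egr1, with 3.11 and 2.58, at Sp3, with 3.70 and 3.14, and at Sp7, with 2.83 and 3.63, against 4.87% of all genes. At the stricter threshold none of these 3 was called, and Klf2 was.

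Where a mark was present in every library, its fold enrichment could be set side by side, although the sequencing depth behind it is unknown. H3K27ac was lower in both Tcf4 cKO than in both WT libraries at 7 of 16 genes (Klf3, Klf5, Klf6, Klf11, Klf13, Sp1 and Egr1), against 21.1% of the 10394 genes so marked, and higher at none, against 14.1%. At Klf11, a TGF-beta-induced repressor, it was 5.85 and 5.08 in WT and 3.60 and 3.72 in Tcf4 cKO. At Sp1 it was 4.87 and 4.86 in WT and 3.54 and 3.38 in Tcf4 cKO. At Klf6 it was 4.99 and 4.11 in WT and 3.43 and 3.86 in Tcf4 cKO. At Egr1 it was 3.44 and 3.79 in WT and 3.02 and 2.43 in Tcf4 cKO. Klf9 and Sp3 overlapped between genotypes, with 3.04 and 3.05 against 3.75 and 2.80 for Klf9, and 5.36 and 4.49 against 5.67 and 4.54 for Sp3. Klf15 had peaks of 3.84 and 3.10 in WT and of 3.47 in 1 Tcf4 cKO library, and Klf4 of 2.79 and 3.15 in WT and of 4.33 in 1 Tcf4 cKO library. For 1 gene, 2 libraries against 2 cannot go below an exact permutation p of 0.333, so no call was made.

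ATAC-seq and H3K27me3 had genes in both directions, and H3K4me1 in 1. ATAC-seq fold enrichment was higher in both Tcf4 cKO libraries at Egr2 and Klf13 of 25 genes, against 9.88% of all, and lower at Klf3, Klf8, Klf9, Klf15, Sp2 and Egr4, against 31.9%. At Egr4 it was 6.17 and 6.50 in WT and 4.15 and 4.36 in Tcf4 cKO. At Egr2 it was 4.18 and 3.89 in WT and 4.61 and 5.43 in Tcf4 cKO. H3K27me3 was lower in both Tcf4 cKO libraries at Sp5, Sp6, Egr2, Egr3 and Egr4 of 12 genes, against 26% of all, and was higher at Klf4 and Klf14, against 18.5%. At Egr4 it was 2.72 and 2.78 in WT and 2.55 and 2.47 in Tcf4 cKO. H3K4me1 was lower at Klf3 and Klf5 of 10 genes, against 17.8%, and higher at none, against 17.9%.

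Consensus regions at these promoters differed little between the genotypes. There were 30 regions at 24 of the 30 genes, 21 of them with a core, against 44.5% of all regions within 1 kb of a start. The difference of the authors' log2 means had a median of -0.130, close to the -0.108 of all regions within 1 kb of a start, and a range from -0.754 to 0.220. Only the region at Egr4 passed 0.5 in either direction, from 7.63 in WT to 6.88 in Tcf4 cKO. It held the variant and the EGR core. Of all regions within 1 kb of a start, 2.45% were above 0.5 and 3.94% below -0.5, so small differences were not particular to these genes. At Klf4 the core-bearing region went from 8.74 to 8.37, at Sp1 from 10.7 to 10.6, at Klf9 from 9.68 to 9.67, and at Egr1 from 10.5 to 10.4.

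**Figure D5:**
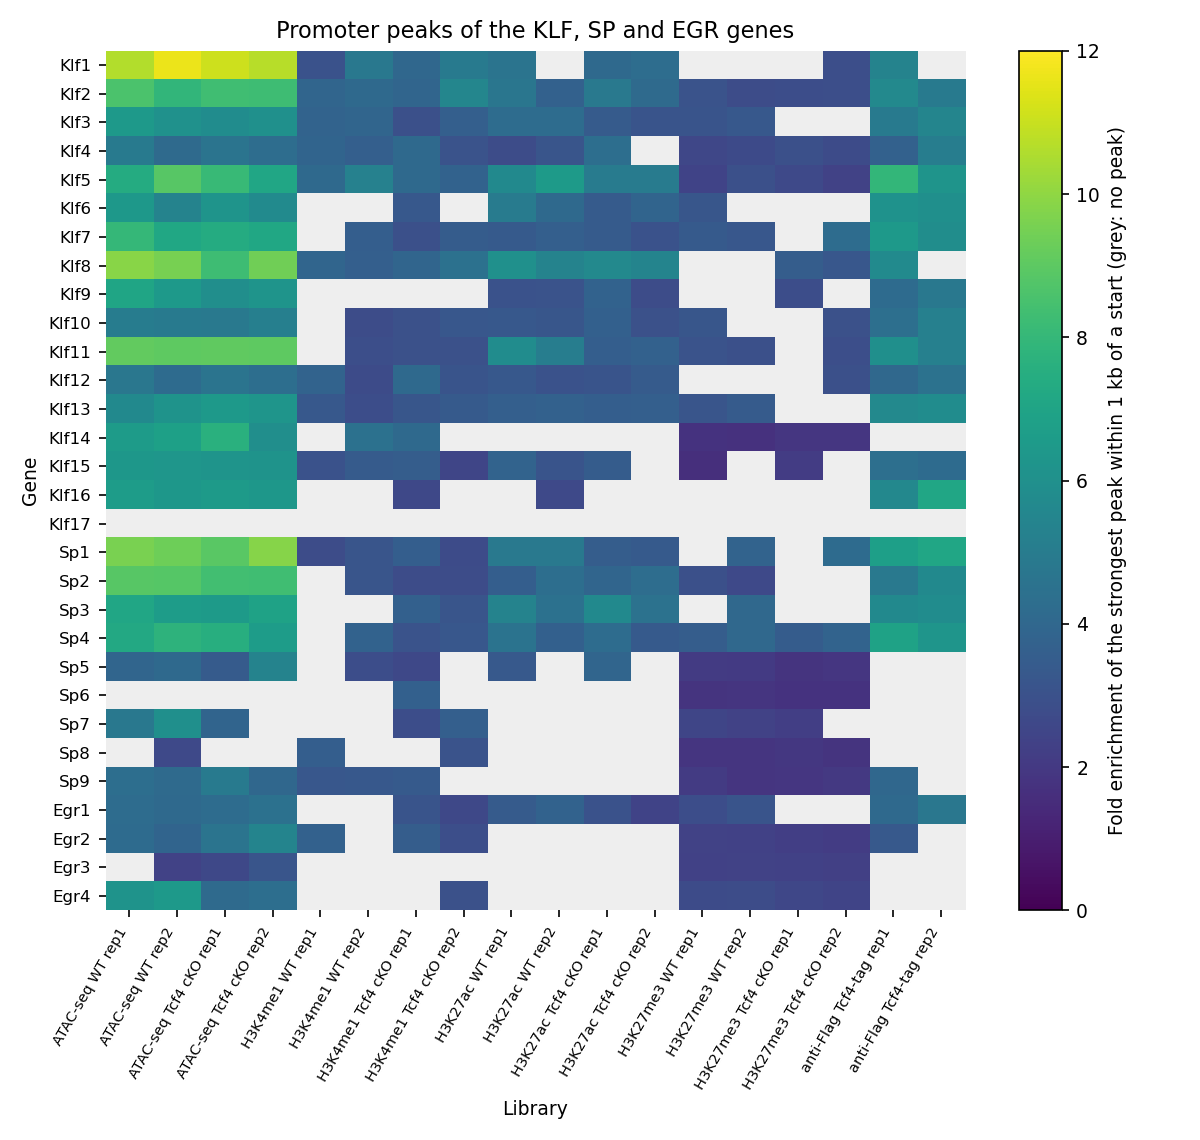
Rows are the 30 KLF, SP and EGR genes, columns the libraries of each assay, and colour the fold enrichment of the strongest peak within 1 kb of a protein-coding start, with grey for no peak. Klf17 is grey throughout, and Klf14, Sp6, Sp8, Sp9, Egr2, Egr3 and Egr4 carry H3K27me3 in all 4 libraries with no H3K27ac.

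Promoters of markers of several cell types carried peaks in the sorted cells. At promoters of OPC markers, ATAC-seq peaks were found at 4 to 5 of 5 genes per library, for astrocyte markers at 2 to 3 of 5, with Aqp4 and Gfap at none, and for interneuron markers at 3 to 5 of 5. Projection neuron markers had peaks at 1 to 2 of 3 genes, microglia markers at 1 to 3 of 3 and endothelial markers at 2 of 3, while no H3K27ac peak lay at any gene of these last 3 lists. OPC and astrocyte markers had H3K27ac at 1 to 2 and 2 of 5 genes, and interneuron markers at 1 to 2 of 5. In these lists Olig2, Sox10, Aldh1l1, Aqp4, Gfap, Lhx6 and Sst had H3K27ac in no library. Over all protein-coding genes, an ATAC-seq peak was present in every library at 64.1% and an H3K27ac peak at 47.5%. In such bulk samples, a change in the cells present and a change within each cell cannot be told apart.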

How the data were processed

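The authors trimmed the reads with Trim Galore, aligned them to mm10 with Bowtie 2, removed duplicates with SAMtools and ran MACS2 per library, in broad mode for H3K27me3. The deposited peak lists hold fold enrichment, a ratio to local background, and −log10 values of p and q, but no read counts, so depth is known only as peak numbers. The deposited footprint table, from TOBIAS on 1 merged alignment per genotype and JASPAR motifs, gives mean footprint scores and numbers of sites. The deposited consensus table, from DiffBind, gives log2 mean normalized reads per genotype. The authors' fold changes, p-values and change scores in both tables were not used.

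Members, gene lists and cores were chosen with earlier results of these data known. Named motifs were the 5 lowest and highest changes, the 3 most and fewest sites, the 3 highest and lowest WT scores, and Klf4, Sp1 and Egr1. Named genes were those with promoter peaks in 1 genotype alone, the 5 highest H3K27ac, those with H3K27me3 in all libraries, and 8 fixed genes. Named distal regions were the 2 largest differences per direction, and others were chosen after their values were seen. Promoter sequences were from RefSeq (GRCm38.p6) and windows from GRCm38, with starts from GENCODE M21. Overlaps were at least 1 bp. The scripts, tested on simulated data, ran under Python 3.11.15 (numpy 2.4.6, scipy 1.17.1, pandas 2.3.3, pysam 0.24.0, matplotlib 3.10.9). Library shares were compared by exact two-sided permutation tests. Single-cell libraries were not used here.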

Additional observations from a re-analysis of the deposited data

How the results depend on the processing

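Of 160 values under another setting, 18 changed sign and 33 others moved in size. The cause was not tested. The remaining 109 kept their direction, some with a different size, or were counts of similar size. Some of the 109 were fixed in advance, so the tally does not measure robustness. With no motif past 5%, none could pass 10%, and the replicate block leaves a difference as it was. At a threshold of 1%, chosen after seeing the data, 28 motifs had a higher score and 38 more bound sites, against 0 at 5%. The differences in core share between ATAC-seq lists (Tcf4 cKO minus WT, in points) were near 0 and changed sign easily. Over 1 kb from a start they were -0.0347 for the GC box, 0.0231 for the variant, -0.0418 for the CACCC box and -0.00646 for the EGR core. With 150 bp on each side they were 0.0824 for the variant and -0.0792 for the CACCC box, and at -log10 q of at least 5 they were 0.0147 and -0.0181. In the 40000 strongest peaks the EGR core had -0.00875. Leaving out 1 library gave -1.81 to 2.47 for the GC box, -0.365 to 0.360 for the variant, -0.0911 to 0.0928 for the CACCC box and -0.145 to 0.200 for the EGR core, each extreme coming from a WT library. It gave 7.91 to 24.4 for H3K4me1, -8.61 to -1.91 for H3K27ac and -4.14 to 0.589 for H3K27me3. With 50% of a region covered, H3K27me3 had 0.204.

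Over consensus regions, centring on all regions gave median differences of -0.0116, -0.0102, 0.00639 and -0.0161 for the GC box, variant, CACCC box and EGR core. Distal regions gave -0.0272 for the GC box, 0.0322 for the variant and -0.0377 for the EGR core. At a threshold of 1, the shares above and below were 0.537% and 0.668% for the GC box, 0.618% and 0.795% for the variant, 2.31% and 3.92% for the CACCC box, and 0.621% and 1.24% for the EGR core. Centring gave 3.46% and 1.97% for the GC box and 4.42% and 2.39% for the variant. Distal regions gave 9.42% and 10.8% for the GC box, 9.22% and 11.7% for the variant, 10.2% and 21.2% for the CACCC box, and 12% and 14.3% for the EGR core.

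Factor genes with a promoter peak in both libraries of a genotype numbered 11 in WT and 19 in Tcf4 cKO for H3K4me1. For H3K27ac they numbered 18 in WT and 17 in Tcf4 cKO, and for H3K27me3 19 and 13. At -log10 q of at least 5 the numbers were 0 and 2 for H3K4me1, 13 and 7 for H3K27ac, and 6 and 8 for H3K27me3. No share over all genes is given for these counts, so they are not read as a result about the factor genes. Without that threshold, reading 1 library alone gave 13 to 18 genes for H3K4me1 in WT.

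Libraries share only a replicate number: deviations of same-numbered libraries had correlations of -0.00136 for ATAC-seq, 0.00241 for H3K4me1, 0.0224 for H3K27ac and -0.00458 for H3K27me3. With the replicate number as a replicate block the differences were the same, 0.328 points for the GC box and 16.2 points for H3K4me1, and the exact paired permutation p of 0.5 for H3K4me1 was the smallest possible. The footprint scores and consensus means, with 1 value per genotype, allowed no replicate check, and read depth, unknown here, limits the peak calls.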
